A study of Danio rerio with 5 samples.

Results

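The genes followed here code for the extracellular matrix of cartilage and bone in the zebrafish embryo. They are the collagen genes col2a1a, col9a1b, col9a2, col9a3, col10a1a, col5a2a and col6a3 and the link protein gene hapln1a, and they were chosen by their gene symbol in the array's annotation. They are 8 of 8793 genes named by a single symbol on the array, and they have 14 of its 15502 probe sets that are not Affymetrix controls. Whole wild-type embryos were taken at 72 h after fertilization, and each RNA sample was hybridised to 1 Affymetrix array. The first group was 1 array of Bdh2 morphants that had also received a synthetic mRNA of mouse Bdh2 (50 µg/ml), called the ectopic Bdh2 array below. The second group was 2 arrays of Bdh2 morphants, and the third was 2 arrays of control morphants. All 5 samples came from embryos injected at the 1- to 2-cell stage with 1 to 2 nL of morpholino at 130 µmol/L. The labels do not say how many embryos were pooled, whether replicates came from separate clutches, which step of bdh2 expression the morpholino blocks or what the control morpholino was. Bdh2 is a short-chain dehydrogenase that has been linked to a mammalian siderophore, and the arrays ask what differs when it is targeted and when it is supplied again.

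Cartilage is built on fibrils of type II collagen, whose chain is encoded by col2a1a and which the zebrafish also lays down in the notochord sheath. Type IX collagen, assembled from the chains of the col9 genes, sits on the surface of those fibrils. Link protein ties the proteoglycan aggrecan to hyaluronan between the fibrils, and hapln1a codes for it. Type X collagen (col10a1a) marks hypertrophic cartilage in mammals and is also made by bone-forming cells in fish. Type V collagen (col5a2a) governs the width of type I fibrils in skin, tendon and bone, and type VI collagen (col6a3) forms beaded filaments around cells of muscle and connective tissue. These genes are therefore not confined to the skeleton, and in RNA of whole embryos fewer cells of a type and less RNA per cell cannot be told apart.

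The median intensity of an array was 173 with ectopic Bdh2, 155 and 140 in Bdh2 morphants and 160 and 161 in controls. Arrays of the same replicate number resembled each other more than arrays of the same group did (r = 0.963 and 0.951 across 9301 probe sets, against 0.913 for the Bdh2 morphants and 0.930 for the controls). The ectopic Bdh2 array is labelled replicate 1. Its r was 0.907 and 0.910 with replicate 1 of Bdh2 morphants and controls, and 0.831 and 0.872 with replicate 2. One Affymetrix control probe set read 184 with ectopic Bdh2, 139 and 34877 in Bdh2 morphant replicates 1 and 2, and 129 and 25644 in control replicates 1 and 2. Differences between Bdh2 morphants and controls are therefore also given within each replicate number. The bdh2 probe set read 142 with ectopic Bdh2, 235 and 643 in Bdh2 morphants and 344 and 335 in controls. This does not check the labels, since a morpholino need not lower its target's RNA and the added mRNA is from mouse. The ratio of 3′ to 5′ probe sets of the acta1 control, which is higher in degraded RNA, was 6.63 with ectopic Bdh2, 11.8 and 3.49 in Bdh2 morphants and 4.28 and 2.60 in controls. The same ratio for the gapdh control was 1.99 with ectopic Bdh2, 2.82 and 1.71 in Bdh2 morphants and 2.68 and 1.5 in controls. Between Bdh2 morphants and controls of replicate 1, the acta1 ratios thus lay far apart and the gapdh ratios close together. The acta1 3′ probe set read 8310 with ectopic Bdh2, 39960 and 36220 in Bdh2 morphants and 44260 and 33260 in controls. The part of either ratio in the results below was not tested.

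Differences are on the scale log2(intensity + 16), fitted with limma over the 9301 probe sets whose mean intensity lay above 103, the 40th percentile. Intensities of different probe sets are not compared with each other. A probe set was called where its p, adjusted by the Benjamini-Hochberg method over all 9301, was under 0.05. Of the 14 member probe sets 10 were tested, at least 1 for each gene, and 4 lay under the filter. A gene with several probe sets is represented by the one with the highest mean.

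In Bdh2 morphants the skeletal collagens had lower values than in controls, by far the most for col10a1a, but no member passed the test. The type II collagen gene col2a1a read 9020 and 3318 in Bdh2 morphants, against 10055 and 5945 in controls. The groups overlapped, because Bdh2 morphant replicate 1 lay above control replicate 2. Its difference was -0.50 (SE 0.50; 95% interval -1.70 to 0.70; limma adjusted p = 1). It was -0.16 within number 1 and -0.84 within number 2, so most of it came from the replicate 2 arrays, and without Bdh2 morphant replicate 2 the difference was 0.22.

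Among the type IX chains, col9a1b read 3381 and 2191 in Bdh2 morphants, against 4687 and 3068 in controls. The col9a2 probe set read 2858 and 1622 in Bdh2 morphants, against 3505 and 3266 in controls. The col9a3 probe set read 2836 and 2153 in Bdh2 morphants, against 3970 and 3134 in controls. The groups overlapped for col9a1b and did not for col9a2 and col9a3. Differences were -0.48 for col9a1b, -0.65 for col9a2 and -0.51 for col9a3, with SEs from 0.32 to 0.37, and each had a limma adjusted p = 1. Within numbers 1 and 2 they were -0.47 and -0.48 for col9a1b and -0.48 and -0.54 for col9a3, nearly the same in both. For col9a2 the difference was -0.29 within number 1 and larger within number 2, where the arrays read 1622 in the Bdh2 morphants and 3266 in the controls.

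The type X collagen gene col10a1a read 55.2 and 42.5 in Bdh2 morphants, against 220 and 582 in controls. Both morphant values were far below both control values and under the filter intensity of 103, and the gene passed the filter through its control level. The difference was -2.54 (SE 0.51; 95% interval -3.76 to -1.32), a 5.82-fold lower level on this scale. A lower difference was found for 9 of the 9301 tested probe sets. This rank is not read as support, since the gene passed the filter only through its control level. Its unadjusted p was 0.00178, and its limma adjusted p was 1. Within numbers 1 and 2 the differences were -1.73 and -3.35. The control arrays themselves lay 1.35 apart on the log2 scale, which is part of that gap, while the Bdh2 morphant arrays lay 0.28 apart.

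The remaining members were lower by amounts similar among themselves, with differences from -0.82 to -0.71, much smaller than that of col10a1a. The col5a2a gene read 861 and 891 in Bdh2 morphants, against 1656 and 1462 in controls. Its difference was -0.93 and -0.70 within numbers 1 and 2 and -0.82 overall (SE 0.31; 95% interval -1.55 to -0.08; unadjusted p = 0.0342, limma adjusted p = 1). The col6a3 probe set read 185 and 93.8 in Bdh2 morphants, against 201 and 258 in controls, a difference of -0.72 (SE 0.42). Nearly all of it lay within number 2 (-1.32, against -0.11 within number 1). The hapln1a probe set with the highest mean read 944 and 628 in Bdh2 morphants, against 1343 and 1206 in controls, a difference of -0.71 (SE 0.34). The groups did not overlap for these 3 genes.

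**Figure D1:**
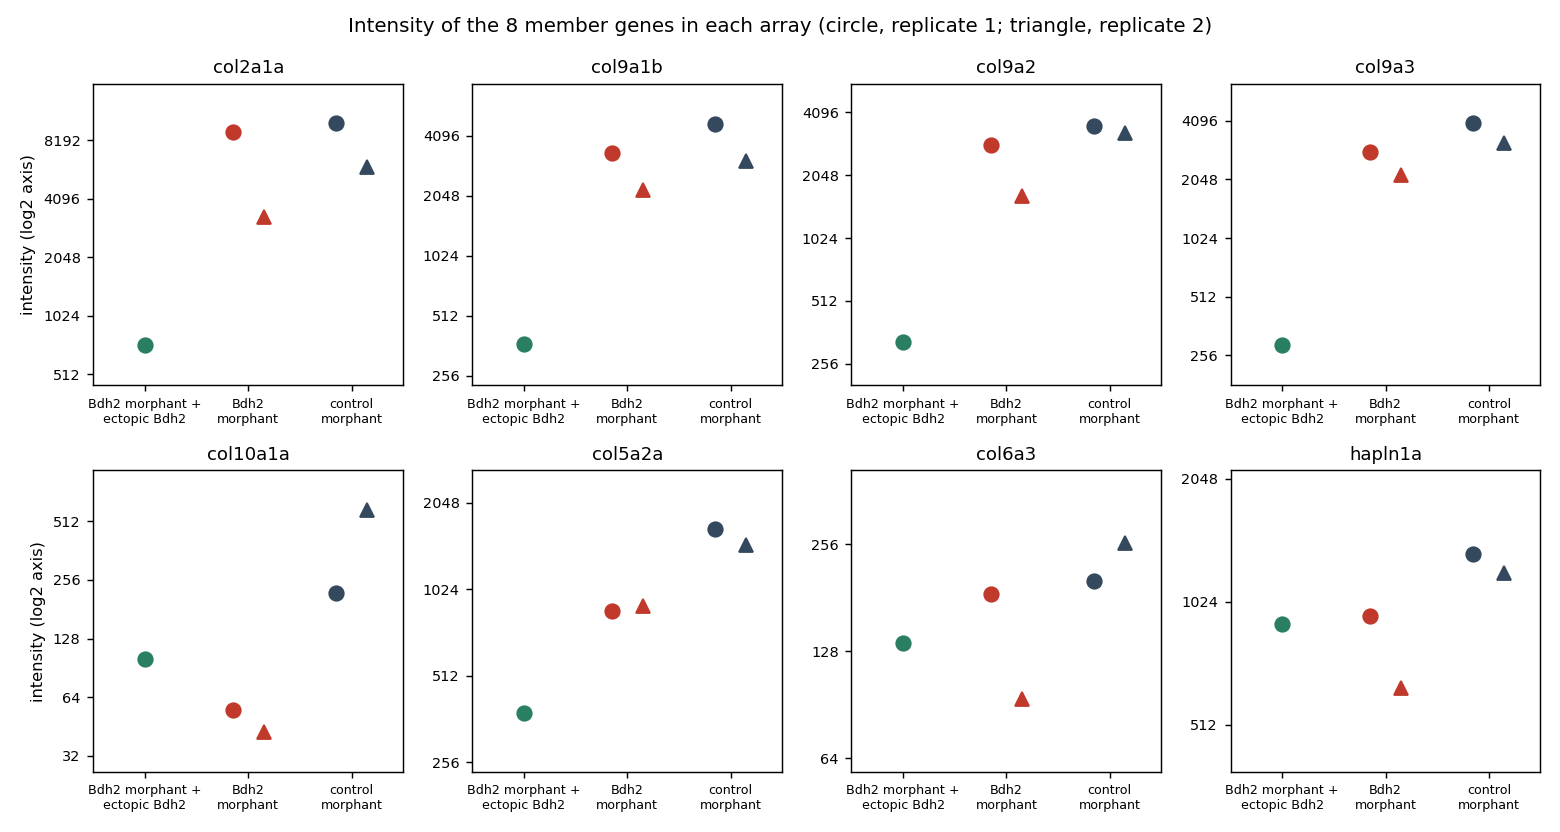
Intensity (log2 axis, scaled per panel) of the 8 genes in each array, with ectopic Bdh2 on the left, Bdh2 morphants in the middle and control morphants on the right; circles are replicate 1 and triangles replicate 2. The 4 type II and type IX genes have their lowest value in the ectopic Bdh2 array, and col10a1a has its lowest values, 55.2 and 42.5, in the Bdh2 morphants.

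By count, all 8 genes had a lower mean in Bdh2 morphants than in controls, with a median difference of -0.68. The median over all 6325 tested genes was 0.02. All 8 genes were lower within each replicate number, with medians of -0.48 and -0.88. Of all tested probe sets, 28.3% were lower within both numbers. For 6 of the 8 genes, and for 7 of their 10 tested probe sets, both Bdh2 morphant arrays lay below both control arrays, as they did for 14.2% of all tested probe sets. Of all 14 member probe sets this held for 8, and for 1, an untested hapln1a set, both Bdh2 morphant arrays lay above both controls. The median of the 8 genes moved to -0.30 when replicate 2 of the Bdh2 morphants was left out and to -1.03 when replicate 1 was, so its size depended on which Bdh2 morphant array was kept. No member was called in this comparison, and 0% of all tested probe sets were (limma, 0 of 9301). At an unadjusted p under 0.05, 1.96% of all tested probe sets were lower, and of the members these were col5a2a and col10a1a. The 8 genes were chosen with earlier results of these data known, and col10a1a entered the test only through its control level. No count of members, in this comparison or in those below, is therefore read against the shares of all tested probe sets. With 2 arrays against 2, an exact permutation test of a single gene cannot give a p below 0.333.

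With ectopic Bdh2, the type II and type IX collagen genes were far lower still, at a level well under every other array. The col2a1a probe set read 719 with ectopic Bdh2, against 9020 and 3318 in Bdh2 morphants. For col9a1b the readings were 368 with ectopic Bdh2, against 3381 and 2191 in Bdh2 morphants. For col9a2 they were 325 with ectopic Bdh2, against 2858 and 1622 in Bdh2 morphants. The ectopic Bdh2 array was the lowest of the 5 for each of these genes. For col9a3 it read 289, against 2836 and 2153 in Bdh2 morphants, and this gene fell past the threshold (-3.03, SE 0.39; 95% interval -3.95 to -2.10; limma adjusted p = 0.0322), an 8.16-fold lower level. With either Bdh2 morphant array left out, the difference stayed about as large but missed the threshold, at -2.83 (adjusted p = 0.0638) when replicate 1 was left out and -3.23 (adjusted p = 0.10) when replicate 2 was.

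The other genes of this type had similar differences but did not pass in the fit as described. The difference of ectopic Bdh2 from Bdh2 morphants was -2.90 for col2a1a (SE 0.62; limma adjusted p = 0.168), -2.83 for col9a1b (SE 0.45; adjusted p = 0.0674) and -2.67 for col9a2 (SE 0.44; adjusted p = 0.0799). With each array centred on its median, col9a1b (-3.04, adjusted p = 0.0356) and col9a2 (-2.87, adjusted p = 0.0391) passed. Of the same 9301 probe sets, between 35 and 61 had a lower difference than col9a3, col2a1a, col9a1b or col9a2. These ranks are not read as support, since the genes were chosen with earlier results known. Leaving out either control array does not change the differences of these genes, since controls enter this comparison only through the shared spread. With Bdh2 morphant replicate 1 dropped, the differences were -2.18 for col2a1a, -2.52 for col9a1b and -2.27 for col9a2. Against that replicate alone they were -3.62, -3.14 and -3.08. In the same gene order, none passed without the filter (limma adjusted p = 0.356, 0.136 and 0.154) or the intensity trend (0.258, 0.128 and 0.144). After quantile normalisation none passed either (0.169, 0.0537 and 0.063). With the filter at the 60th percentile col9a1b passed (0.047).

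The link protein gene hapln1a, whose product acts beside these collagens, read close to the Bdh2 morphants. The hapln1a probe set with the highest mean read 903 with ectopic Bdh2, against 944 and 628 in Bdh2 morphants, and lay between the morphant arrays. Its difference was 0.23 with a 95% interval from -0.78 to 1.23 (limma adjusted p = 0.865). This interval does not reach those of col9a1b, col9a2 or col9a3, whose upper ends ran from -2.10 to -1.62. Of the other tested hapln1a probe sets, the second by mean intensity had an interval from -1.21 to 1.18, which does not reach them either. It shares its Affymetrix base name with the first, so they may not be separate measures. The third, which has a different base name, had an interval from -2.24 to 1.46, which does reach them. The difference between these genes was not itself tested. The col6a3 probe set read 135 with ectopic Bdh2, also between the Bdh2 morphant arrays at 185 and 93.8. Its difference of 0.02 (95% interval -1.20 to 1.25) turned to -0.18 with each array centred on its median and to -0.17 after quantile normalisation.

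The col5a2a gene read 379 with ectopic Bdh2, against 861 and 891 in Bdh2 morphants. It lay below both, with a difference of -1.18 (SE 0.38; 95% interval -2.08 to -0.27; unadjusted p = 0.0180, limma adjusted p = 0.320). The col10a1a gene went the other way and read 100 with ectopic Bdh2, against 55.2 and 42.5 in Bdh2 morphants. The difference was 0.85 (SE 0.63; 95% interval -0.64 to 2.34; limma adjusted p = 0.617), so the interval included 0. All of these values lie near or under the filter intensity of 103.

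By count, 5 of the 8 genes were lower and 3 higher with ectopic Bdh2 than in Bdh2 morphants, with a median of -1.92 against 0.08 over all tested genes. The median of the 4 type II and type IX genes was -2.87. The threshold was passed by 1 of the 10 tested member probe sets, which was lower, against 0.484% of all tested probe sets passing as lower and 0.0215% as higher. At an unadjusted p under 0.05, 5 of the 10 were lower, against 5.56% of all. The ectopic Bdh2 array was the lowest of the 5 arrays for 5 of the 8 genes, against 21.9% of all tested probe sets. Since the genes were chosen with earlier results known, these counts are not read against those shares. With a single array in this group there is no replicate of it, and its spread was taken from the other groups.

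Set against controls, which share arrays with both comparisons above, the ectopic Bdh2 array gave the clearest calls. For col9a3 it read 289 with ectopic Bdh2, against 3970 and 3134 in controls. The type IX genes col9a3 (-3.54, SE 0.39; adjusted p = 0.0115), col9a2 (-3.32, SE 0.44; adjusted p = 0.0291) and col9a1b (-3.31, SE 0.45; adjusted p = 0.0310) all fell past the threshold (limma). These are levels 11.6-fold, 9.98-fold and 9.91-fold lower on the log2(intensity + 16) scale. For col2a1a the difference was -3.40 (SE 0.62; adjusted p = 0.109), of the same size with a larger error. Over these 4 genes, the 16 differences of the ectopic Bdh2 array from single other arrays ran from -3.78 to -2.18. Within each group the difference was larger from replicate 1 than from replicate 2.

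The rest of the genes differed less from controls. The col5a2a gene read 379 with ectopic Bdh2, against 1656 and 1462 in controls (-1.99, SE 0.38; 95% interval -2.89 to -1.09; adjusted p = 0.128). For col10a1a the array read 100 with ectopic Bdh2, against 220 and 582 in controls, so it lay below both controls and above both Bdh2 morphants (-1.69, SE 0.63; adjusted p = 0.621). The differences of col6a3 (-0.69) and hapln1a (-0.49) had 95% intervals that included 0. In all, 3 of the 10 tested member probe sets passed as lower, against 0.667% of all tested probe sets, and 6 were lower at an unadjusted p under 0.05, against 4.70% of all. Among those 6 is col10a1a, which entered the test only through its control level. These counts, too, are not read against the shares of all tested probe sets. The median over the 8 genes was -2.65, against 0.09 over all tested genes.

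**Figure D2:**
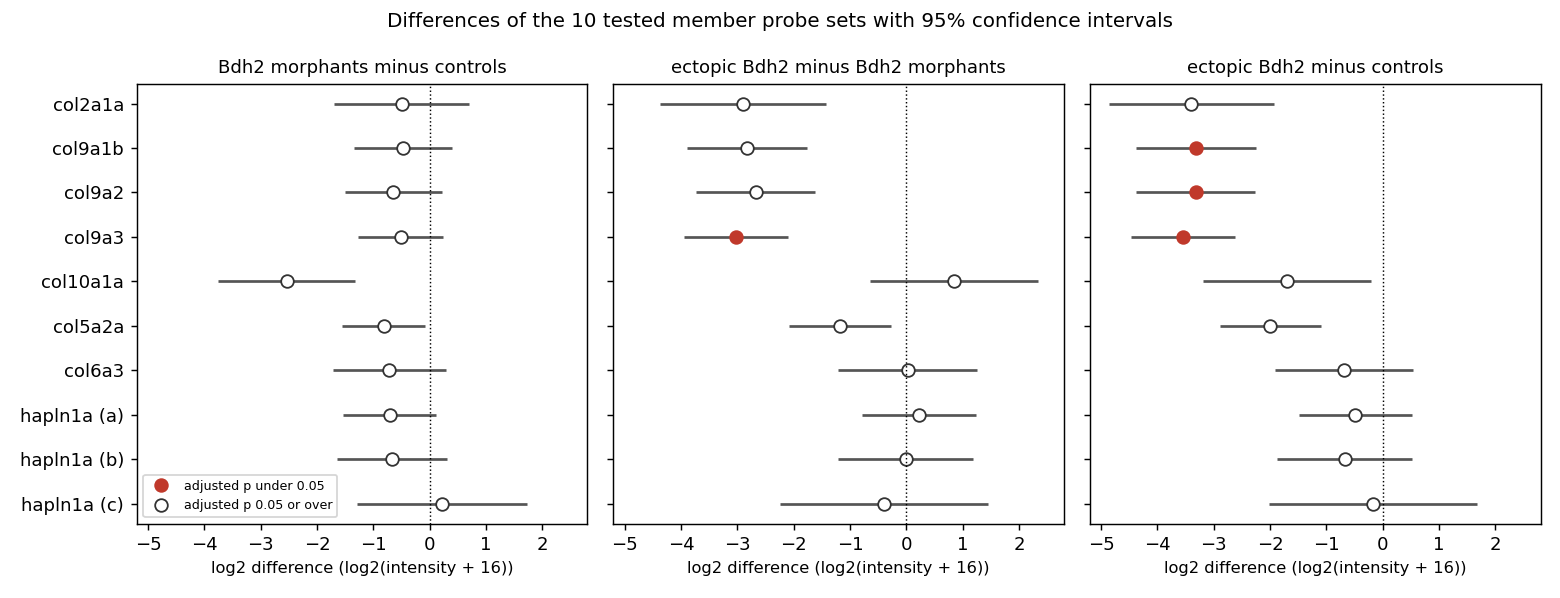
Log2 differences of the 10 tested probe sets in the 3 comparisons, with 95% confidence intervals from limma as bars; filled points passed an adjusted p of 0.05. Letters mark the 3 tested hapln1a probe sets in order of mean intensity. Only col9a3 passed for ectopic Bdh2 against Bdh2 morphants, the 3 col9 genes passed against controls, and col10a1a lies at -2.54 in Bdh2 morphants against controls without passing.

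**Figure D3:**
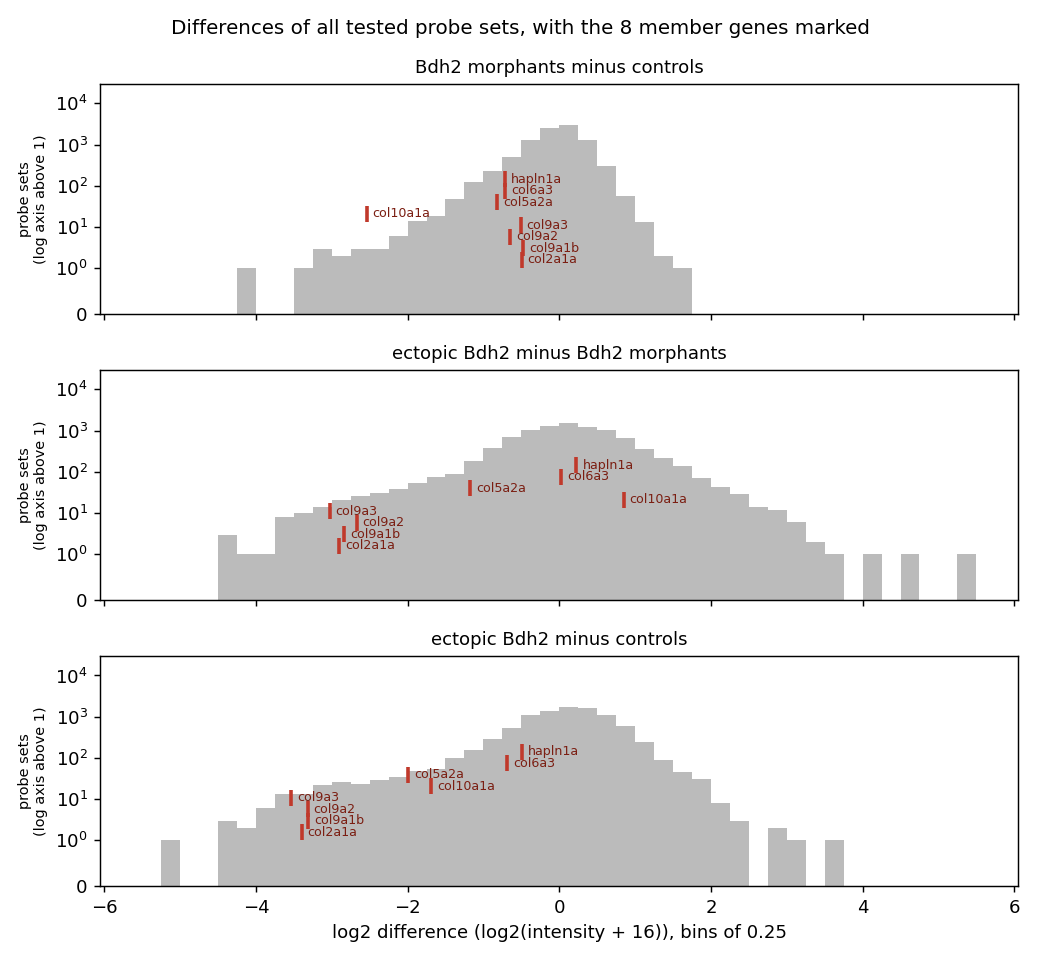
Number of tested probe sets (log axis above 1) by log2 difference in bins of 0.25, for the 3 comparisons, with the 8 genes marked by red ticks whose height has no meaning. The type II and type IX genes sit inside the main body in the top panel, at -0.65 to -0.48, and in the lower tail in the panels with ectopic Bdh2, at -3.03 to -2.67 and at -3.54 to -3.31.

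Where a gene had several probe sets, they did not all tell the same story. The second probe set of col5a2a was under the filter and read 27.6 with ectopic Bdh2, 72.9 and 41.7 in Bdh2 morphants and 89.6 and 83.3 in controls. Its order of groups was the same as that of the tested one, with a difference of -0.52 between Bdh2 morphants and controls. For hapln1a, 3 of the 6 probe sets were tested. The second (b) read 410 with ectopic Bdh2, 375 and 456 in Bdh2 morphants and 932 and 474 in controls. Its groups barely separated, with Bdh2 morphant replicate 2 next to control replicate 2. The third (c) read 160 with ectopic Bdh2, 291 and 157 in Bdh2 morphants and 357 and 89.6 in controls, and its groups overlapped. Their differences between Bdh2 morphants and controls were -0.67 for b (SE 0.41) and 0.22 for c (SE 0.63), against -0.71 for the first. The 3 untested ones had mean intensities from 14.3 to 32.4. Their differences between Bdh2 morphants and controls ran from -0.64 to 1.01, and in the set at 1.01 both Bdh2 morphant arrays lay above both controls. The first hapln1a probe set carries the suffix that Affymetrix gives to sets whose probes match more than one transcript.

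**Figure D4:**
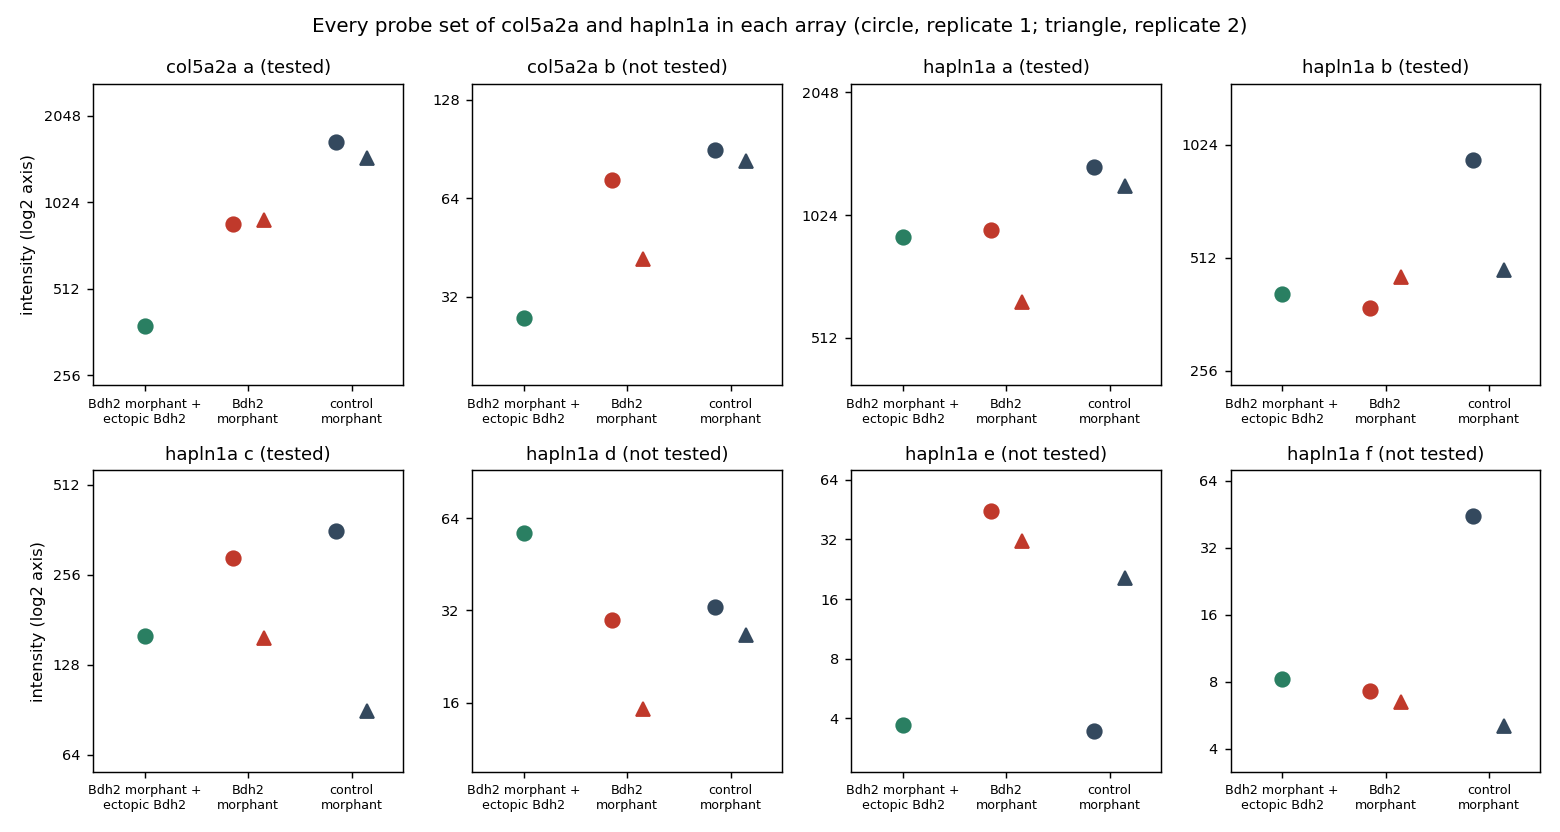
Intensity (log2 axis, scaled per panel) of both col5a2a and all 6 hapln1a probe sets in each array, ordered by mean intensity within a gene, with ectopic Bdh2 left of Bdh2 morphants and controls; circles are replicate 1 and triangles replicate 2. The col5a2a sets share their order of groups, whereas the hapln1a sets c to f differ from a.

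Replicate number also moved these genes. In both groups with replicates, replicate 2 read lower than replicate 1 for col2a1a, by -1.44 in Bdh2 morphants and -0.76 in controls, and for each col9 gene, by -0.81 to -0.39 in Bdh2 morphants and -0.61 to -0.10 in controls. For col10a1a the replicates went opposite ways, at -0.28 in Bdh2 morphants and 1.35 in controls. Replicate 2 was below replicate 1 in both groups for 5 of the 8 genes, against 38.0% of all tested probe sets. For col2a1a the difference between replicates of a group was thus larger than its difference between Bdh2 morphants and controls.

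Other genes of cartilage that could be tested were few, and they were also mostly lower. Of 26 further cartilage matrix genes listed, 7 were on the array and 4 were tested. In Bdh2 morphants 3 of the 4 had lower values than in controls, with a median of -0.59, and 0 passed. Both Bdh2 morphant arrays lay below both control arrays for 0 of the 4, against 14.2% of all tested probe sets. With 4 genes this count is too small to be read against that share. The matrilin gene matn1, which codes for a filament-forming protein of cartilage, read 11.5 and 49.1 in Bdh2 morphants, against 44.3 and 733 in controls. Its difference of -2.33 (SE 1.12) was -1.13 within number 1 and -3.52 within number 2. Control replicate 2 stood far above the rest, as it did for col10a1a. All other arrays read under the filter intensity, so matn1 entered the test only through control replicate 2. The 3 lower genes and the median of -0.59 include matn1. A related matrilin gene, matn4, differed by -0.64, and cnmd, which codes for the cartilage glycoprotein chondromodulin, by -0.55. With ectopic Bdh2 all 4 were lower than the mean of the Bdh2 morphants, with a median of -1.67, and 0 passed. For matn1 this was only -0.10, and its reading of 23.5 lay between the Bdh2 morphant arrays. The lowest was cnmd, which read 148 with ectopic Bdh2, against 1418 and 686 in Bdh2 morphants (-2.62, SE 0.65; limma adjusted p = 0.243). The type XI collagen gene col11a1a, whose chain lies within type II fibrils, read 1155 with ectopic Bdh2, against 6997 and 2840 in Bdh2 morphants (-1.93, SE 0.58). It did not share the small deficit of Bdh2 morphants against controls (0.08). Under the filter, col11a2 read 27.4 with ectopic Bdh2, 77.2 and 75.0 in Bdh2 morphants and 159 and 113 in controls. Its groups did not overlap, with a difference of -0.70 between Bdh2 morphants and controls. The other listed genes under the filter, acanb (0.35) and ucmaa (0.48), were higher in Bdh2 morphants. These genes were named after their values were seen and were not tested.

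Of 20 listed genes of bone and bone-forming cells, 12 were on the array and 7 were tested. In Bdh2 morphants 6 of the 7 were lower than in controls, with a median of -0.29, and 0 passed. The type I collagen gene col1a2 differed by -0.71 (SE 0.35), col1a1a by -0.54 (SE 0.32), and sparc, which codes for a collagen-binding glycoprotein of bone, by -0.56 (SE 0.31). With ectopic Bdh2, 5 of the 7 were lower than in Bdh2 morphants, with a median of -0.64 and 0 passing. The lowest was again col1a2, at 2441 with ectopic Bdh2, against 7927 and 4248 in Bdh2 morphants (-1.24, SE 0.43). Type I collagen was thus closer to Bdh2 morphants in this array than type II and type IX were, though that difference was not tested. One gene under the filter, ifitm5, which codes for a membrane protein of bone-forming cells, read 22.4 with ectopic Bdh2, 7.15 and 8.09 in Bdh2 morphants and 112 and 89.2 in controls. It was picked after its values were seen, it was not tested, and its order of groups is that of col10a1a. Of the other listed bone genes under the filter, col10a1b (0.35) and sp7 (0.69) were higher in Bdh2 morphants than in controls. The runx2b (-0.14) and spp1 (-0.25) genes were lower. These genes, too, were named after their values were seen and were not tested.

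Genes that regulate the skeleton went both ways. Of 24 listed regulators and signals 10 were tested. In Bdh2 morphants 6 of the 10 were lower than in controls, with a median of -0.12, and 0 passed in either direction. The homeobox gene nkx3-2, needed for the jaw joint, differed by -0.76 (SE 0.53), dlx6a, a homeobox gene of the pharyngeal arches, by -0.26, and gdf6a, a growth factor gene, by 0.23. With ectopic Bdh2 the values ran from -1.78 to 1.41 against Bdh2 morphants, with a median of -0.13, and 0 passed. The cartilage regulator sox9b read 3804 with ectopic Bdh2, against 2078 and 977 in Bdh2 morphants (1.41, SE 0.62; limma adjusted p = 0.425). For this gene, whose product is known to drive type II collagen genes, the ectopic Bdh2 array was the highest of the 5, and for col2a1a it was the lowest. A link between these values was not tested. The related gene sox9a, named after its values were seen, read 9.57 with ectopic Bdh2, lay under the filter and was not tested. The mef2ca gene, a regulator of craniofacial development and muscle, differed by -1.78 (SE 0.73).

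Genes that modify, fold and export collagen had 15 tested members of 41 listed. Their median in Bdh2 morphants against controls was -0.08, with 10 of 15 lower and 0 passing. The values ranged from p4ha1b, a subunit of the enzyme that hydroxylates collagen proline (-1.16, SE 0.51), and loxl2b, a collagen crosslinking enzyme (-0.27), to crtap, a partner of another prolyl hydroxylase of collagen (0.51, SE 0.28). With ectopic Bdh2, 13 of 15 were lower than in Bdh2 morphants, with a median of -0.55 and 0 passing. The smallest p-values belonged to crtap, at 944 with ectopic Bdh2, against 3171 and 3349 in Bdh2 morphants (-1.77, SE 0.34; limma adjusted p = 0.134), and the collagen chaperone gene fkbp10b (-1.60, SE 0.44).

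Of 30 listed genes of connective tissue matrix 8 were tested. In Bdh2 morphants 5 were lower than in controls, with a median of -0.33, including vcanb, which codes for the proteoglycan versican (-0.44), and tncb, a tenascin gene (-0.40), while col14a1a was at 0.52. None of the 8 passed (limma, 0 at an unadjusted p under 0.05). With ectopic Bdh2 all 8 were lower than in Bdh2 morphants, with a median of -0.52 and 0 passing. The lowest was the tendon thrombospondin gene thbs4b (-2.18, SE 0.48), followed by col14a1a (-1.72, SE 0.49).

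Other tissues were read through marker lists, since they also make some of these collagens or share the embryo with them. Of the 8 lists, the muscle markers had the lowest median with ectopic Bdh2. Their summed intensity over 15 genes was 36608 with ectopic Bdh2, 254695 and 218304 in Bdh2 morphants and 300692 and 270249 in controls. The 15 tested muscle genes had a median of -2.86 against Bdh2 morphants, nearly that of the type II and type IX genes. Of them 13 fell past the threshold, against 0.484% of all tested probe sets passing as lower. Examples are the fast myosin light chain genes mylpfa (-3.53, SE 0.22; adjusted p = 0.00937) and mylz3 (-2.91, SE 0.23; adjusted p = 0.00939). In Bdh2 morphants against controls 14 of the 15 had lower values, with a median of -0.31 and 0 passing, among them acta1a (-0.83), tnnt3b (-0.73) and tpma (-0.59). Both Bdh2 morphant arrays lay below both control arrays for 11 of the 15, against 14.2% of all tested probe sets. Within both replicate numbers 14 were lower, against 28.3% of all. The list was chosen with earlier results known, so these counts are not read against those shares. Lower values in most genes of a list were thus not particular to the matrix genes. The part of the muscle change in the collagen values was not tested.

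The notochord also makes type II and type IX collagen. Its 9 markers on the array summed to 3339 with ectopic Bdh2, 3686 and 2731 in Bdh2 morphants and 3739 and 3707 in controls. The ectopic Bdh2 array thus lay between the Bdh2 morphants. All 3 of these arrays lay below both controls, but Bdh2 morphant replicate 1 was nearly level with control replicate 2. Much of that sum came from ccn2a, shha and foxa2, which read 1480, 774 and 754 with ectopic Bdh2, so it mainly reflects these markers. Single markers did not move alike, since 3 of the 6 tested were lower with ectopic Bdh2 than in Bdh2 morphants and 3 were higher. The tbxta gene, which codes for the notochord factor brachyury, read 33.4 with ectopic Bdh2, against 262 and 234 in Bdh2 morphants (-2.42, SE 0.50; limma adjusted p = 0.162), and cmn, a gene of the notochord sheath, differed by -2.46 (SE 0.65). In contrast shha, the sonic hedgehog gene, differed by 0.48, and ccn2a, which codes for a matrix-associated growth regulator, by 0.28. The remaining tested markers, named after their values were seen, were col8a1a (-1.48) and foxa2 (0.89). In Bdh2 morphants against controls the 6 tested markers had a median of -0.03, with ccn2a at -0.51, shha at -0.21 and tbxta at 0.20. The 15 skin markers summed to 78299 with ectopic Bdh2, 120629 and 111622 in Bdh2 morphants and 130846 and 103311 in controls. Their median was -0.61 with ectopic Bdh2 against Bdh2 morphants and -0.02 in Bdh2 morphants against controls, with 0 of 15 passing in both. In the first comparison the keratin genes krt5 (-1.19) and krt8 (-1.08) had the smallest p, and in the second krt15 (-1.03), krt91 (-0.94) and the junction gene cldne (0.42) did. Neither of these lists was tested for its part in the collagen values.

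**Figure D5:**
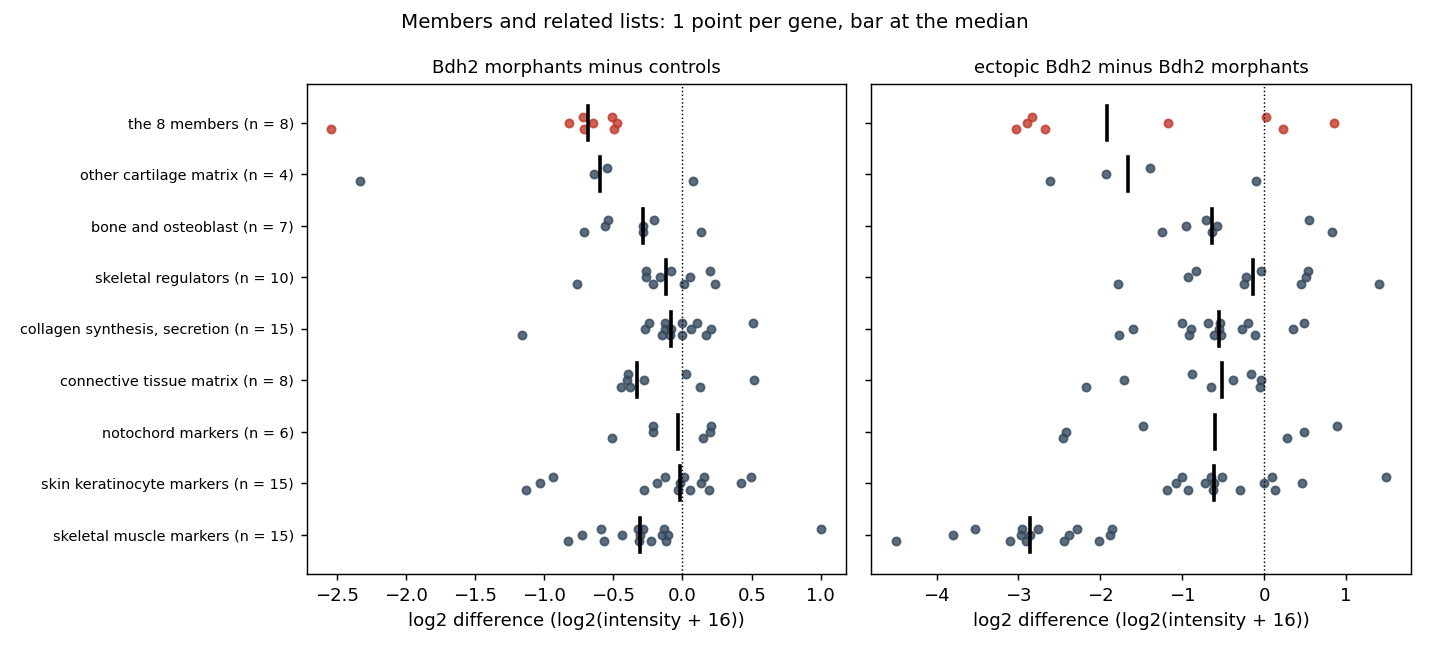
Log2 differences of the 8 genes (red) and of the tested genes of 8 related lists (dark points, 1 per gene), with a bar at each median, for Bdh2 morphants minus controls (left) and ectopic Bdh2 minus Bdh2 morphants (right). The median of the 8 genes is -0.68 on the left, and on the right the muscle markers have the lowest median, -2.86, with the 8 genes at -1.92 and the further cartilage genes at -1.67.

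Among 6317 other tested genes, those whose profile over the 5 arrays was most like that of col2a1a were zgc:162816 (Pearson r = 0.998), the sodium pump gene atp1a1a.4 (r = 0.994) and kdelr2a (r = 0.992), which codes for a receptor that returns proteins to the endoplasmic reticulum. The atp1a1a.4 probe set read 130 with ectopic Bdh2, 600 and 322 in Bdh2 morphants and 667 and 551 in controls. The profile of col10a1a was most like those of impdh1b (r = 0.995), which codes for an enzyme of guanine nucleotide synthesis, herpud1 (r = 0.987), a gene of the endoplasmic reticulum stress response, and mmp14b (r = 0.986), which codes for a membrane-bound collagenase. The mmp14b probe set read 319 with ectopic Bdh2, 288 and 279 in Bdh2 morphants and 357 and 387 in controls. With 5 arrays such coefficients are easily high: 64 genes exceeded 0.95 for col2a1a and 13 for col10a1a. They describe the order and spacing of these arrays and not the size of a change, which was only 0.51 on the log2 scale between controls and the ectopic Bdh2 array for kdelr2a.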

How the data were processed

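The authors deposited 1 table of linear probe set intensity values, with 1 column per array; the submitters' processing notes name Affymetrix Expression Console. For its version, algorithm and scaling, nothing was found in the labels. Arrays differ in their sorted values, so the table is not quantile normalised. The table holds no detection calls, and the number of arrays limits the precision.

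From it, 115 control probe sets were set aside, log2(intensity + 16) was taken with no further scaling, and the 9301 probe sets with a mean intensity above the 40th percentile were tested (6201 were not). One model with a mean per group was fitted to all 5 arrays with limma 3.58.1 in R 4.3.3, moderated with an intensity trend (2 residual and 4.80 prior degrees of freedom). All p-values are two-sided and carry a Benjamini-Hochberg adjustment over the 9301, with a threshold of 0.05. The pipeline was run on simulated data with noise drawn independently for each array, so without the shifts that arrays of the same replicate number share. Only Bdh2 morphants against controls was checked there, so the simulation does not bear on the calls of the ectopic Bdh2 array. The labels do not say that replicates are separate clutches, so p-values measure the spread between these samples only. Symbols came from the array's annotation; 10718 probe sets matched the RefSeq gene table by gene identifier. No sequences or coordinates were used here.

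The genes and lists were chosen with earlier results of these data known. Named are all 14 probe sets of the 8 genes, in each list the 3 tested genes with the smallest p in Bdh2 morphants against controls and the 2 with the smallest p in ectopic Bdh2 against Bdh2 morphants, and the 3 genes nearest to col2a1a and to col10a1a by Pearson r. Others are said to lie outside this rule. Alternatives covered the added constant, the filter, the scaling, the moderation, the threshold, the choice of probe sets, the replicate number as a block and each replicated array left out.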

Additional observations from a re-analysis of the deposited data

How the results depend on the processing

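All values are log2 differences or counts of called probe sets, for Bdh2 morphants against controls (0), ectopic Bdh2 against Bdh2 morphants (47) and ectopic Bdh2 against controls (62). With the replicate number as a block, the counts were 2, 144 and 134 with the ectopic Bdh2 array in block 1, its labelled number. They were 2, 830 and 353 with it in block 2. The labels do not say that the number marks a batch, and deviations of same-numbered arrays from their group means correlated at r = 0.544 across probe sets. In both blocked fits col2a1a passed in both comparisons of the ectopic Bdh2 array (adjusted p from 0.00337 to 0.0107). Against Bdh2 morphants col9a1b (adjusted p = 0.00758 and 0.00708 with blocks 1 and 2) and col9a2 (0.0148 and 0.0114) passed too, and against controls col5a2a did (0.0342 and 0.0237). The block changed no other call of the 8 genes, and the member median against controls was -2.40 with block 2. The counts of the ectopic Bdh2 comparisons were 17 and 38 without the filter, and 0 and 26 without the intensity trend, where col9a3 had adjusted p = 0.0793 and 0.0909 against Bdh2 morphants; against controls, col9a1b and col9a2 passed in neither setting. At an adjusted p under 0.1 the count against Bdh2 morphants was 74. With 1 array left out, the counts ran from 0 to 5 (Bdh2 morphants against controls), 0 to 222 (ectopic Bdh2 against Bdh2 morphants, 0 without Bdh2 morphant replicate 2, 195 and 222 without control replicates 1 and 2) and 84 to 127 (ectopic Bdh2 against controls, the most without control replicate 1); the lone array of a group is then assumed to vary like the others. The cause of these shifts was not tested. The member medians ran from -1.03 to -0.30, from -2.11 to -1.69 and from -2.73 to -2.65 in the same order.

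Of the 8 genes, col10a1a kept its direction in Bdh2 morphants against controls under each of 14 alternatives (-3.21 to -1.87, adjusted p from 0.0587 to 1); its value depends on the added constant because both morphant values are low. The direction of col6a3 between ectopic Bdh2 and Bdh2 morphants turned to -0.18 with arrays centred, -0.17 after quantile normalisation and -0.11 with block 1, and it ran from -0.41 to 0.46 with an array left out. With an array left out, hapln1a ran from -0.063 to 0.51 in that comparison and col2a1a from -1.22 to 0.22 in Bdh2 morphants against controls. Centring moved the median of all tested probe sets from 0.12 to -0.08 for ectopic Bdh2 against Bdh2 morphants and from -0.01 to 0.10 for Bdh2 morphants against controls. Choosing the filter by the mean log2 value, an alternative added after seeing the data, gave 0, 49 and 62 calls.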
